A study of Mus musculus with 9 samples.

Results

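The cytosolic ribosomal protein genes were examined in RNA-seq profiles of mouse colon organoids. Members were the protein-coding genes of GENCODE M21 whose symbol is Rpl or Rps followed by p0 to p2, by a, or by a number and at most 1 letter, with pseudogenes left out. This gave 80 genes, 49 of the large subunit and 31 of the small subunit, all of them among the 48795 genes of the deposited table. Organoids were grown from colonic crypts of wild-type (WT) mice or of mice lacking the aryl hydrocarbon receptor (AHR KO), kept in WENR, a medium containing Wnt-3A, EGF, Noggin and R-spondin 1, and given the solvent DMSO or 5 nM FICZ, a high-affinity AHR ligand, for 4 h. Per the methods of the study, the AHR KO mice carry a floxed Ahr allele recombined by Cre under the Villin promoter, which acts in the intestinal epithelium. The groups were WT DMSO (n = 2), WT FICZ (n = 3), AHR KO DMSO (n = 2) and AHR KO FICZ (n = 2). The methods describe the organoids as generated from biological replicates, but the labels do not tie single libraries to mice, so p-values are over libraries.

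Each cytosolic ribosome is built from a small subunit, which reads the mRNA, and a large subunit, which joins amino acids. Most of their proteins are present once per ribosome, so cells keep the mRNAs of the many genes in step. These mRNAs are among the most abundant of a growing epithelial cell and share a pyrimidine-rich start, the terminal oligopyrimidine (TOP) tract, through which mTOR signalling controls their translation. The mouse genome also holds many processed pseudogenes of these genes, and some of them keep a coding sequence identical to that of the parent gene. AHR is a transcription factor that binds DNA at sites with the core GCGTG.

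A pyrimidine-rich run lies at or near the annotated start of some members. RefSeq promoters (GRCm38.p6, 250 bases before to 50 after the start) were matched by symbol to 60 of the 80 genes, with 72 start sites. Each line gives the 15 bases before and the 15 bases after the annotated start, on the strand of the gene, with the longest unbroken run of C and T in capitals. Shown are 3 genes that rose with FICZ in both genotypes and 3 that fell as deposited, chosen for their long runs.
Rpl18, chr7:45718056-45718085, plus strand: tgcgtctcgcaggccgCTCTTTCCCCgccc
Rpl13, chr8:123102335-123102364, plus strand: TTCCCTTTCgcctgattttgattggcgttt
Rps9, chr7:3704026-3704055, plus strand: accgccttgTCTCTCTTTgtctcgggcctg
Rpl35, chr2:39005117-39005146, minus strand: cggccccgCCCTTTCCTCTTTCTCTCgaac
Rpl15, chr14:18270972-18271001, minus strand: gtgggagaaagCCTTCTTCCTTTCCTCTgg
Rpl38, chr11:114668565-114668594, plus strand: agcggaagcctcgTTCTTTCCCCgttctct
The run is 10 bases long in Rpl18 and Rpl38, 9 in Rpl13 and Rps9, 17 in Rpl15 and 18 in Rpl35. In Rpl13 it begins 15 bases before the annotated start and ends before it, and in Rps9 it begins 6 bases before. The counts that follow take a run wherever it lies in the window and are not counts of TOP tracts. A run of 8 or more was found in 27 of the 72 member windows (37.5%), against 12% of the windows of all 32851 promoters, and the median longest run was 6 bases in the members and 4 in all promoters. The letters CTTTCC, read on the strand of the gene in the 30-base window, were found in 10 of 72 (13.9%) against 1.42% of all promoters. Over the full 300 bases and both strands CTTTCC was found in 36 of the 72 member promoters and in 26.6% of all. Genes of either direction carried the run: 3 of 11 start sites of the genes called higher in both genotypes and 4 of 11 of those called lower. The AHR core GCGTG, searched on both strands of the 300 bases, was found in 41 of 72 member promoters (56.9%), against 50.9% for the promoters of genes that passed the filter on low values here and 32.4% for all promoters. It was found at 9 of the 11 start sites of the genes called higher in both genotypes and at 6 of the 11 of those called lower. These start sites belong to 8 and 9 genes, so some genes count more than 1 time. Base composition of the promoters was not taken into account. Of the 6 genes shown, Rpl15 was not called in either genotype with its copies added (−0.12 in WT and −0.03 in AHR KO), and Rpl18, Rps9 and Rpl15 were not called once the trend on GC content and length described further on was removed. With both changes Rpl15 stood at 0.06 in WT and 0.16 in AHR KO. A match describes the letters only. The annotated start need not be the start used in these cells.

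The deposited values are read counts per gene estimated and normalised by the authors. They summed to between 23177058 and 25033827 per library, and the most frequent low value put the depth at about 21.5 to 30.1 M reads. All 9 markers of colon epithelium, among them Epcam, Cdh1 and Krt8, were above 0 in every library. The 8 immune markers summed to at most 2.18 and the 3 endothelial markers to at most 5.27, while the 7 fibroblast markers summed to 57.5 to 111 in WT and 19.4 to 39.1 in AHR KO, without overlap, with 3 to 5 of them at 0. Pdgfrb, the 1 of the 7 that passed the filter, was lower in AHR KO (−1.60 under DMSO and −1.55 under FICZ). Cyp1a1, the standard AHR target, was at 0 to 5.84 under DMSO, at 6987 to 7958 in WT FICZ and at 100.3 to 139 in AHR KO FICZ. Ahr itself was not lower in the libraries labelled AHR KO (1346 to 1443, against 783 to 858 in WT), a count over the whole gene that does not show which exons are present. AHR KO therefore stands for the label of a library throughout. GC-rich transcripts were represented differently by treatment: the correlation of a library's deviation with transcript GC content over all genes tested was −0.33 to −0.24 in the 4 DMSO libraries and 0.14 to 0.25 in the 5 FICZ libraries.

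The members took up about the same part of each library. Their summed signal was 4.28% ± 0.07 (SD, n = 2) of the library in WT DMSO, 4.24% ± 0.15 (n = 3) in WT FICZ, 4.15% ± 0.02 (n = 2) in AHR KO DMSO and 4.31% ± 0.04 (n = 2) in AHR KO FICZ. With their annotated copies added, the shares were 4.98%, 4.87%, 4.85% and 4.97%. The single libraries lay between 4.11 and 4.40% for the members alone, and WT DMSO and WT FICZ overlapped. AHR KO DMSO (4.13 and 4.16%) lay below AHR KO FICZ (4.28 and 4.34%) and below WT DMSO (4.23 and 4.33%). Signal of large subunit genes relative to small subunit genes was split by treatment: the ratio was 1.68 in each of the 4 DMSO libraries and between 1.56 and 1.6 in the 5 FICZ libraries, with no overlap. This ratio rests on the summed members and was not tested.

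Levels between genes were compared per kb of coding sequence, since the annotated transcripts of some members are far longer than their mRNA. The counts also take in untranslated parts, so a gene with a short coding sequence can stand higher per kb for that alone. Of the 80 genes, 76 passed the filter of a mean of 10 or more. Among these, leaving out Rpl41, whose coding sequence of 75 bases is shorter than a fragment, the mean level per kb ran from 931 for Rpl12 to 59894 for Rps24, a 64.3-fold range. After adding the copies of each gene the range narrowed to between 10731 (Rps27l) and 59910 (Rps24), or 5.58-fold, around a median of 27359. Large subunit genes had a median of 28929 per kb and small subunit genes one of 26634. The lowest levels with copies added were those of Rps27l, a relative of Rps27 regulated by p53, and of Rpl34 (11691 per kb).

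**Figure D1:**
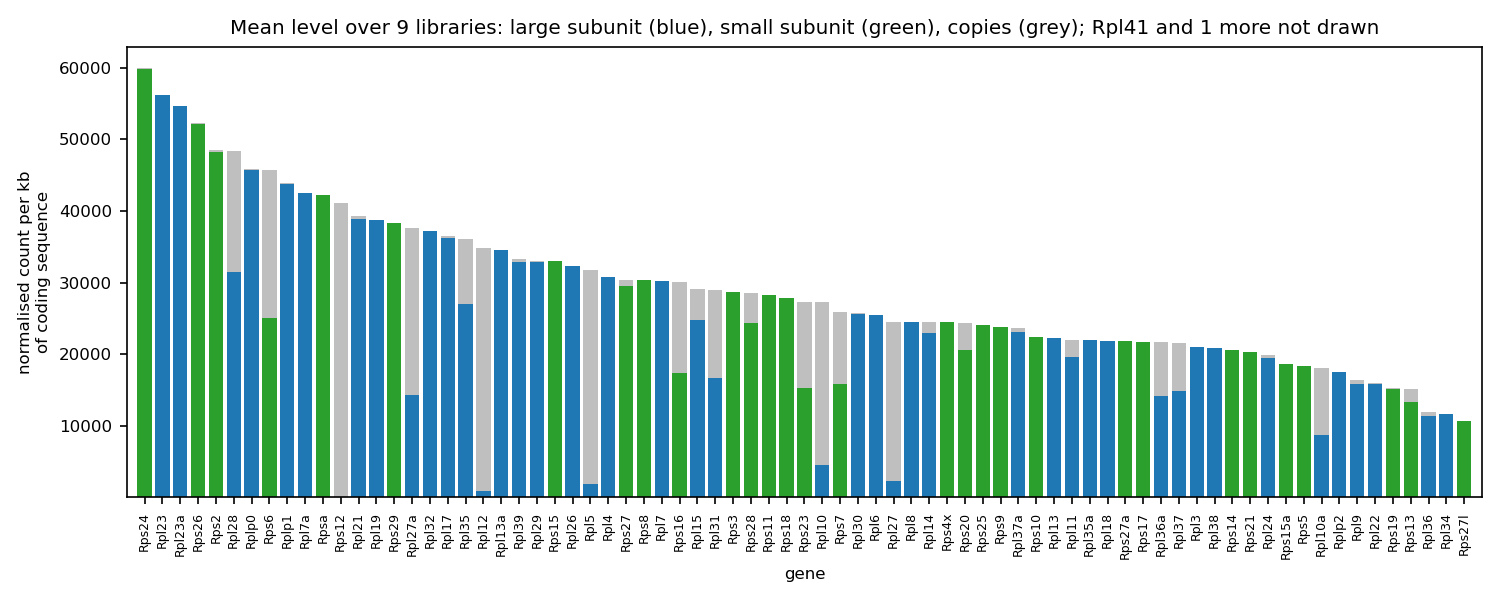
Mean normalised count per kb of coding sequence over the 9 libraries for each gene (vertical axis), ordered by the level with copies added, with large subunit genes in blue, small subunit genes in green and annotated copies stacked in grey; Rpl41 and 1 other gene are not drawn. Rpl12, Rps12, Rpl5, Rpl27 and Rpl10 are almost wholly grey, and with copies added the genes tested run from 10731 to 59910 per kb.

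The other 4 members were under the filter. Rpl10l and Rpl39l, copies of Rpl10 and Rpl39 known for expression in testis, were at 0 in all 9 libraries. Rpl3l, the muscle relative of Rpl3, was at 0 in 8 libraries and at 0.9 in AHR KO FICZ replicate 1. Rps12 was at 0 in 8 libraries and at 2.0 in WT FICZ replicate 2. Rps12-ps3 and other copies together held between 15608 and 16865 per library, and which locus these reads came from was not measured. Rps4l was not among the protein-coding genes that the rule found.

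The split of signal between a gene and its copies touched many members. A search of the member coding sequences against the annotated transcripts (90% identity over 50% of the coding sequence) found 831 copies in the table, 818 of them annotated as pseudogenes. Of the 831 copies, 50 had a mean of 10 or more. In 26 members every 75-base stretch of coding sequence also occurred in a transcript of another gene. Copies held 10% or more of the signal of 20 tested members and under 1% of that of 48. For Rpl5, Rpl12, Rpl27, Rpl10, Rpl27a, Rpl10a and Rps12, the copies held more signal than the gene. Gm15500, identical to Rpl5 over its 891 coding bases, had a mean of 26691, and Rpl5 itself one of 1637. A value listed under such a gene is therefore uncertain, and each comparison was repeated on the sum of the gene and its copies, an alternative chosen after seeing the data.

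Members differed in both directions between FICZ and DMSO in WT organoids. In the fit over all genes (limma on log2(value + 1), 12741 genes tested), 14 of 76 members (18.4%) were called higher and 21 (27.6%) lower, while 41 did not pass. Over all genes 15.1% were called higher and 15.7% lower. Genes at or above the level of the lowest tested member, other than the members, were called higher in 18% and lower in 23.6% of cases. The members' median log2 difference was −0.07, against −0.01 over all genes, and the median size of a member's difference was 0.17. Large subunit genes accounted for 8 of the 14 higher calls and 15 of the 21 lower calls, and for 46 of the 76 members tested (60.5%). Quantile normalization moved the split to 18 higher (23.7%) and 16 lower (21.1%), against 14.2% and 14.7% of all genes, and leaving out WT DMSO replicate 2 or 3 left 18 or 20 calls (6 higher and 12 lower against 8.21% and 7.42% of all genes, and 9 and 11 against 8.99% and 8.77%). In the same comparison 3 of the 9 epithelium markers were called, Cdx2 (0.80) and Cdx1 (0.40) higher and Lgr5 (−1.28) lower, and none in AHR KO. Cdx1 differed by −0.04 and was not called with the trend on GC content and length removed. In that fit 1 of the 9 markers was called higher and 2 lower in WT, and 1 of the lower calls was not there as deposited. Their part in the members' differences was not tested. In these bulk samples fewer cells of a type and less RNA per cell cannot be told apart.

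Higher members in WT included the stalk proteins that recruit elongation factors to the large subunit. Rplp1 was at 11946 and 12836 in WT DMSO and at 18116, 15881 and 18647 in WT FICZ (log2 difference 0.50 ± 0.07 SE, adjusted p = 0.0011). Rplp0, which anchors the stalk, was at 37784 and 38816 without FICZ and at 46299, 49936 and 47151 with it (0.32 ± 0.06, adjusted p = 0.0032). The FICZ libraries lay above the DMSO libraries in both genes. Rplp2, the other stalk protein, was at 5655 and 5519 against 5910, 6427 and 5924, a difference of 0.12 ± 0.06 that did not pass (adjusted p = 0.14). Rps2, a protein of the mRNA entry site, stood at 35759 and 37003 in WT DMSO and at 51164, 47139 and 52607 in WT FICZ (0.47 ± 0.06, adjusted p = 0.0006). Rpl13 (0.41 ± 0.06) and Rps19 (0.39 ± 0.06), the latter the gene most often mutated in Diamond-Blackfan anaemia, were also called higher without overlap between the groups. Rpl10a had a difference of 0.44 ± 0.11, which fell to 0.07 when its copies were added and was then not called.

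Lower members in WT were led by Rpl23, which was at 29307 and 30016 in WT DMSO and at 20641, 19427 and 21007 in WT FICZ (−0.54 ± 0.05, adjusted p = 0.0002). Rpl23 and Rpl5 belong, with Rpl11, to the large subunit proteins known to bind Mdm2. Rpl21 was at 23678 and 23473 against 17871, 16197 and 17732 (−0.45 ± 0.06, adjusted p = 0.0005). Rps24 went from 29222 and 28202 to 21225, 22143 and 22001 (−0.40 ± 0.06, adjusted p = 0.0008). In each of these the 3 FICZ libraries lay below both DMSO libraries. Rpl38, a protein known for its part in translation of Hox mRNAs, was at 5334 and 5029 without and at 3859, 3976 and 3958 with FICZ (−0.40 ± 0.05, adjusted p = 0.0004). Rpl22, which is dispensable for general translation, differed by −0.39 ± 0.05 and Rpl24, a bridge between the subunits, by −0.25 ± 0.06 (adjusted p = 0.0007 and 0.016). Rpl5 differed by −0.41 ± 0.06, and by −0.29 with its copies added, called in both. With the GC and length trend removed as well it differed by −0.10 and was not called (adjusted p = 0.18).

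Most other members fixed for naming did not pass in WT. Rpl3, an early assembling protein of the large subunit, was at 25753 and 25436 against 23646, 26789 and 24127 (−0.04 ± 0.06, adjusted p = 0.61). Rpsa, also known as the laminin receptor, was at 37289 and 37575 against 40587, 38904 and 41611 (0.11 ± 0.05, adjusted p = 0.14). Rpl11 differed by 0.06 ± 0.04, Rpl41 by 0.02 ± 0.05, Rpl39 by −0.06 ± 0.08, Rps4x by −0.14 ± 0.08, Rps27 by −0.17 ± 0.08, Rps27l by −0.15 ± 0.07 and Rps27a, which is made as a fusion with ubiquitin, by −0.17 ± 0.08. With copies added, Rpl11 was called lower (−0.17). Rps6, the substrate of the S6 kinases, was lower, at 20163 and 19903 against 16202, 18812 and 17432 (−0.20 ± 0.06, adjusted p = 0.035). The sum of Rps6 and its copies showed a larger difference (−0.35), since Rps6-ps4, identical in coding sequence, had a mean of 20695 in WT DMSO and 14510 in WT FICZ. With the GC and length trend removed Rps6 alone differed by −0.14 and was not called (adjusted p = 0.14).

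**Figure D2:**
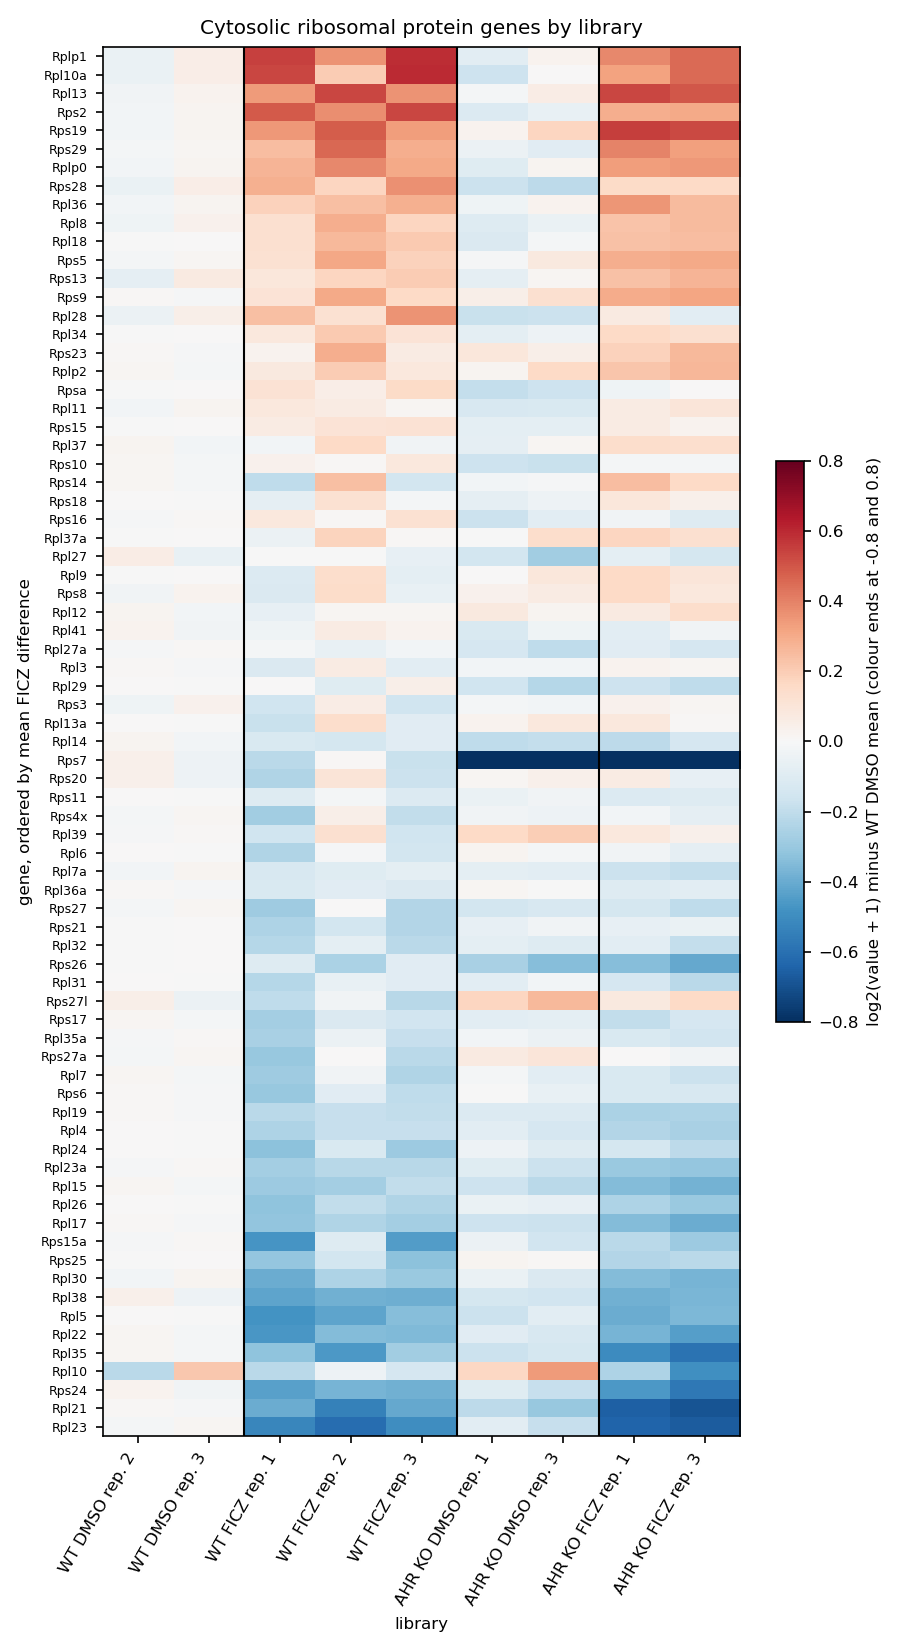
Each row is 1 of 75 of the tested genes, ordered by the mean of its FICZ differences in WT and AHR KO, and each column 1 of the 9 libraries; colour gives log2(value + 1) minus the WT DMSO mean, red higher and blue lower, ending at −0.8 and 0.8. Rows at the top (Rplp1, Rpl13, Rps2) are red in all 5 FICZ libraries, rows at the bottom (Rpl23, Rpl21, Rps24) are blue in them, and Rps7 is dark blue in the 4 AHR KO libraries.

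FICZ differences of the same members were also present in the libraries labelled AHR KO, in which Cyp1a1 reached 100.3 to 139 with FICZ. In AHR KO, 17 of 76 members (22.4%) were called higher and 13 (17.1%) lower, where 10.2% of all genes were called higher and 9.48% lower. Of the other genes at or above the level of the lowest tested member, 13.0% were called higher and 15.1% lower. The members' median was 0.01, as against −0.01 over all genes. The 2 comparisons share no library. Of the 76 members, 65 (85.5%) had the same sign in both genotypes, against 77.8% of all genes tested. There were 13 members (17.1%) called higher in both and 12 (15.8%) lower in both, against 7.83% and 7.35% of all genes. None was called in opposite directions, 10 were called in WT alone and 5 in AHR KO alone. Across the 76 members, which are not independent replicates, the WT and AHR KO differences correlated at r = 0.93 (Spearman's rho = 0.94), and across all genes tested at r = 0.58 (rho = 0.65). With the GC and length trend removed, 77.6% of the members and 71.1% of all genes had the same sign, with r = 0.90 and 0.50. Whether the members differ in this from other genes was not tested.

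Single members gave the following values in AHR KO. Rplp1 was at 11699 and 12637 in AHR KO DMSO and at 16143 and 16950 in AHR KO FICZ (0.44 ± 0.08, adjusted p = 0.0060). Rpl13 went from 11472 and 12124 to 16797 and 16418 (0.49 ± 0.07, adjusted p = 0.0024). Rps29, a small zinc-binding protein of the head of the small subunit, was at 5470 and 5298 against 7441 and 7095 (0.43 ± 0.07, adjusted p = 0.0037), after 0.33 ± 0.06 in WT. All of these were without overlap. Rps19 differed by 0.44 ± 0.07, Rplp0 by 0.38 ± 0.06 and Rps2 by 0.38 ± 0.07. On the lower side, Rpl23 was at 28008 and 26093 against 19056 and 18679 (−0.52 ± 0.06, adjusted p = 0.0016), Rpl21 differed by −0.42 ± 0.06, Rps24 by −0.37 ± 0.06 and Rpl35 by −0.39 ± 0.07. Rpl22 (−0.30 ± 0.06) and Rpl38 (−0.23 ± 0.05) were also called lower.

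Rpl10, mutated in T cell leukaemia, had the lowest log2 difference in AHR KO, at 3364 and 3798 against 2522 and 2136 (−0.62 ± 0.13, adjusted p = 0.011). Its copies, chiefly Rpl10-ps3, held 13593 and 13169 against 15662 and 15018. The sum differed by 0.06 (adjusted p = 0.65), so the call was lost and the sign turned. Rpl11 was called higher in AHR KO (0.21 ± 0.05, adjusted p = 0.017) but differed by 0.02 with its copies added, and Rps13 likewise went from 0.28 to 0.09. Leaving out any 1 of the AHR KO libraries left 1 in its group. Fewer members were then called in AHR KO, as were fewer of all genes, the fewest without AHR KO DMSO replicate 1. The members' median difference lay between −0.01 and 0.03 in these fits.

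**Figure D3:**
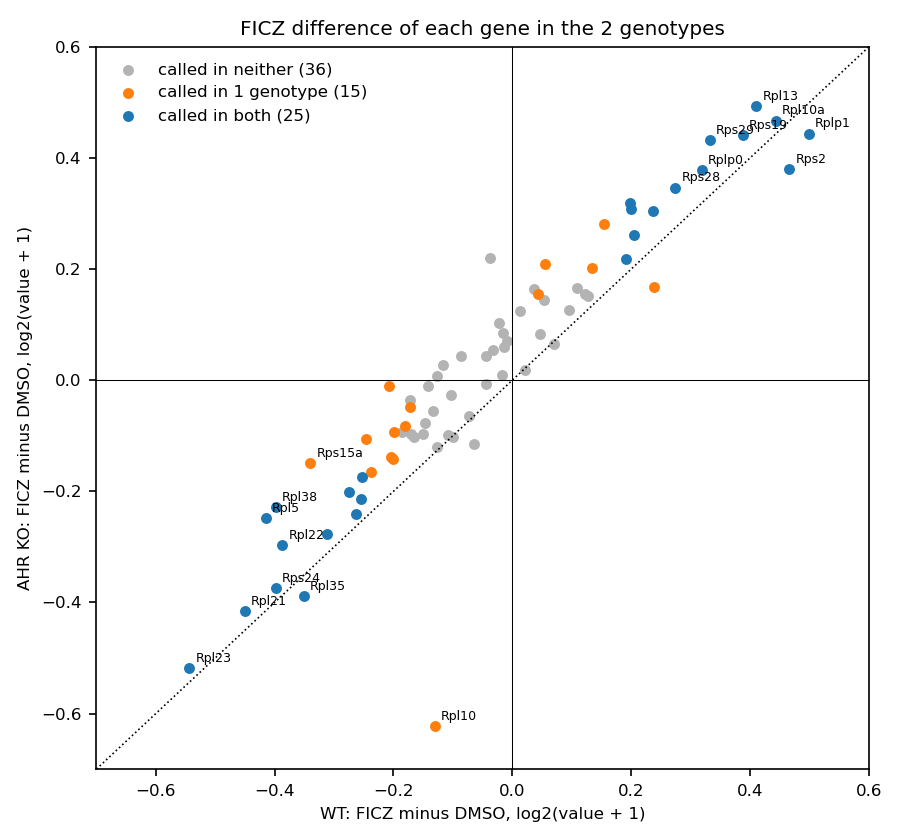
FICZ minus DMSO on the log2(value + 1) scale in WT (horizontal axis) and in AHR KO (vertical axis) for the 76 tested genes, coloured by whether limma called the gene in both genotypes (25), in 1 (15) or in neither (36); the dotted line marks equal differences. Points lie along the dotted line, most of them slightly above it, and Rpl10 stands apart with −0.13 in WT and −0.62 in AHR KO.

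No member was called for a difference between the genotypes in the FICZ change. The WT change minus the AHR KO change passed in 0 of 76 members by limma, with 4 at an unadjusted p under 0.05 (Rps21, Rpl38, Rpl11 and Rpl10, chosen after their values were seen), or 5.26% against 7.47% of all genes. Over all genes 0.377% were called higher and 0.0706% lower in this comparison. The value was negative in 67 of 76 members, with a median of −0.07 against −0.01 over all genes. For Rpl38 it was −0.17 ± 0.07 (adjusted p = 0.61) and for Rplp0 −0.06 ± 0.09 (adjusted p = 0.96). A p that misses the threshold does not show equal changes: the median standard error of a member here was 0.09.

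WT FICZ replicate 2 stood apart from the other 2 libraries of its group. Its value lay above both in 52 members and below both in 16, so outside their range in 68 of 76 (89.5%), against 74.7% of all genes tested. Rps14, a protein of the platform of the small subunit, was at 7869, 10724 and 8174 in WT FICZ replicates 1, 2 and 3 and at 10782 and 10115 in AHR KO FICZ. The median difference between WT FICZ replicates 1 and 3 over the members was 0.05 in log2, that between replicates 2 and 1 was 0.14, that between replicates 2 and 3 was 0.13, and those between WT FICZ replicate 2 and AHR KO FICZ replicates 1 and 3 were 0.05 and 0.09. Cyp1a1 was at 6987 in this library and at 7797 and 7958 in the other 2 of its group. Without it, 14 members (18.4%) were called higher and 33 (43.4%) lower by FICZ in WT, against 15.6% and 16.8% of all genes. In that fit 23 members (30.3%) had an unadjusted p under 0.05 for the difference between genotypes, against 10.1% of all genes, and Rps14 alone was called in it (−0.40, adjusted p = 0.044).

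GC content went along with the FICZ differences. All 14 members called higher in WT and all 17 in AHR KO were among the 38 with a transcript GC content at or above the median of 51.3%. Of the 38 members below it, 16 were called lower in WT and 10 in AHR KO, and none higher. Across the 76 members the WT difference correlated with GC content at r = 0.54, and across all genes tested at r = 0.38. When a smooth trend on GC content and transcript length over all genes was taken out of each library, 10 members (13.2%) were called higher and 11 (14.5%) lower in WT, against 7.63% and 9.71% of all genes. In AHR KO 7 (9.21%) were called higher and 9 (11.8%) lower, against 1.48% and 3.16% of all genes. Of the members called as deposited, 7 of 14 higher and 10 of 21 lower calls were kept in WT, and 5 of 17 and 8 of 13 in AHR KO. Across the members r = 0.04 was left in WT. Rpl8, Rpl18 and Rpl36, at 58.0 to 60.8% GC, went from 0.20, 0.20 and 0.24 in WT to 0.00, 0.01 and 0.01. Rps19 went from 0.39 to 0.15 in WT and from 0.44 to 0.17 in AHR KO and was not called in either. Rplp1 (0.39) and Rps2 (0.31) were still called in WT, but not in AHR KO (0.29 and 0.21, adjusted p = 0.066 and 0.082). Rpl13 was called in both genotypes (0.26 and 0.31), but not in AHR KO once copies were added as well (adjusted p = 0.061). Rpl24 was not called in WT (−0.17, adjusted p = 0.073) and Rpl5 not in AHR KO (−0.05). Rpl38, at 59.1% GC, went from −0.40 to −0.57 and Rpl35 from −0.35 to −0.50. What part GC content has in the differences was not tested beyond this, and treatment and the GC trend of the libraries cannot be told apart.

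**Figure D4:**
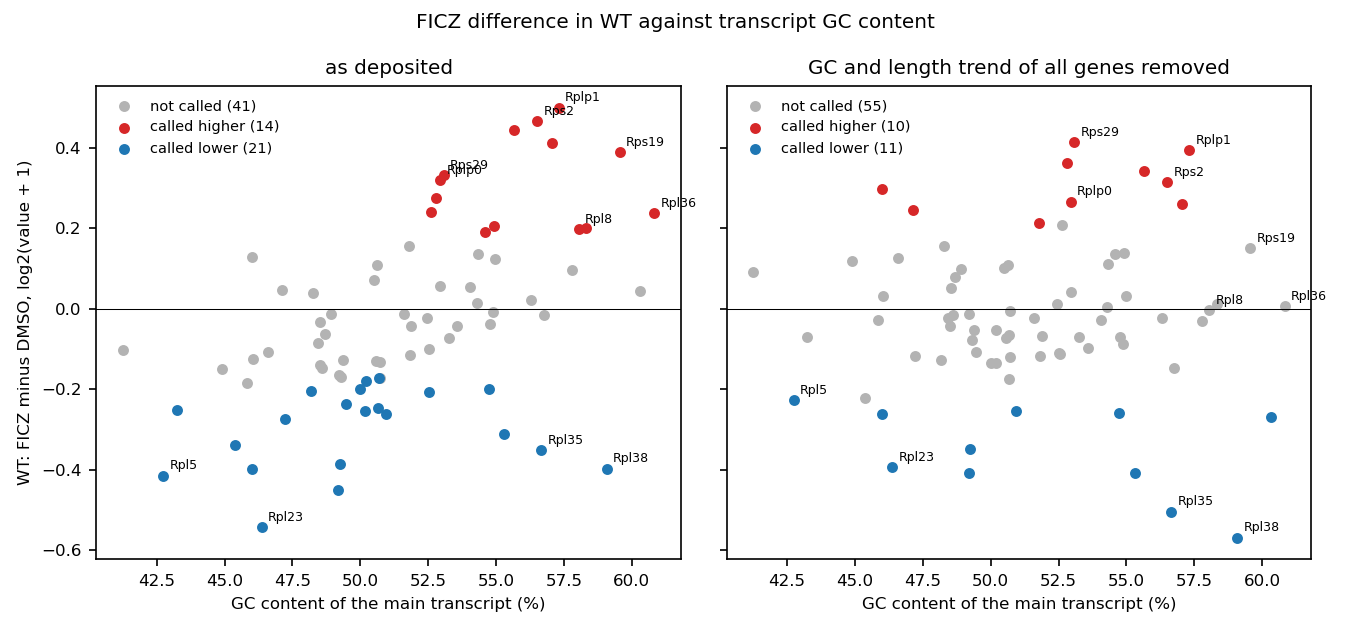
FICZ minus DMSO in WT on the log2(value + 1) scale against the GC content of the main transcript for the 76 tested genes, as deposited (left) and with the GC and length trend of all genes removed (right); red points were called higher, blue points lower and grey points not called. On the left no gene below the median GC content is red (14 red, 21 blue); on the right 10 are red and 11 blue, and Rpl38 and Rpl35 lie lower than on the left.

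With the trend removed 6 members (7.89%) were called higher in both genotypes and 8 (10.5%) lower in both, against 148 and 335 (2.64%) of the 12704 genes tested with GC content and length known. There were 10 members called the same way in both genotypes under each of the 4 treatments of the values (as deposited, copies added, GC and length trend removed, and both). The 3 higher ones were Rplp0, Rps28 and Rps29, with 0.27, 0.27 and 0.37 in WT and 0.32, 0.33 and 0.43 in AHR KO once copies were added and the trend removed. The 7 lower ones were Rpl21, Rpl22, Rpl23, Rpl30, Rpl35, Rpl38 and Rps24, with −0.60 (Rpl38) to −0.26 (Rps24) in WT and −0.48 (Rpl38) to −0.23 (Rps24) in AHR KO. Single libraries were left out on the values as deposited only. Without any 1 of the WT FICZ libraries, all 10 were still called in both genotypes. Leaving out a library of another group left 1 in it, and some of the 10 then lost a call, except without WT DMSO replicate 3. Without AHR KO DMSO replicate 1 most of the 10 lost their call in AHR KO. These 10 genes lie on chromosomes 2, 4, 5, 11, 12, 14, 15 and 17.

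Genotype was compared first without the ligand. Under DMSO no member was called higher in AHR KO and 5 (6.58%) lower, where 4.21% of all genes were called higher and 4.83% lower. Of the other genes at or above the level of the lowest tested member, 4.42% were called higher and 6.18% lower. An unadjusted p under 0.05 was found in 22 members (28.9%), near the 23.8% of all genes. In the same comparison 3 of the 9 epithelium markers were called lower (Cdx1, Cdx2 and Epcam, −1.15, −0.43 and −0.43), beside the fibroblast markers given before, and the part of either in the members' differences was not tested. Rps7, a small subunit protein, was at 12832 and 12101 in WT DMSO and at 5978 and 5839 in AHR KO DMSO (−1.08 ± 0.07, adjusted p = 5.2e-05). It was the only member with a difference over 2-fold in any of these comparisons. Rps26 (−0.30 ± 0.07), Rpl21 (−0.25 ± 0.06) and Rpl14 (−0.20 ± 0.05) were among the others called lower. Rpl14 differed by −0.04 with its copies added and Rps26 by −0.26 with the GC and length trend removed, and neither was then called. Left-out libraries changed these calls. Leaving out either WT DMSO or either AHR KO DMSO library left 1 in its group, and fewer members were called, as were fewer of all genes. The members' median was then −0.08 to −0.06, against −0.07 with all libraries. Without WT FICZ replicate 2, 13 members were called (2 higher and 11 lower, against 5.06% and 6.51% of all genes).

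Under FICZ, 1 member was called higher in AHR KO and 5 lower (6.58%), against 9.48% of all genes higher and 10.5% lower. Of the other genes at or above the level of the lowest tested member, 10.2% were called higher and 13.6% lower. Rps7 was at 10752, 12534 and 11025 in WT FICZ and at 6017 and 5866 in AHR KO FICZ (−0.94 ± 0.07, adjusted p = 1.2e-05). Rps26, Rpl21, Rpl28 and Rpl35 differed by −0.23 ± 0.06, −0.22 ± 0.06, −0.25 ± 0.07 and −0.19 ± 0.06. Rps26 was not called with the trend removed (−0.20), Rpl35 not with copies added (−0.14) and Rpl28 not with both (−0.19). Of the 9 epithelium markers the same 3 were called lower here, and Lgr5 (1.46) and Krt18 (0.38) higher. Rps27l was higher, at 2297, 2592 and 2269 in WT FICZ and 2791 and 2951 in AHR KO FICZ (0.27 ± 0.07, adjusted p = 0.020), and under DMSO its difference of 0.22 ± 0.07 did not pass (adjusted p = 0.11). Leaving out WT FICZ replicate 2 gave 17 higher (22.4%) and 11 lower calls (14.5%) under FICZ, against 11.2% and 13.0% of all genes, so the members' shares then lay above those of all genes and not below. Leaving out WT FICZ replicate 1 gave 1 call (1.32%, lower), against 7.07% of all genes higher and 7.73% lower. Leaving out WT FICZ replicate 3 also gave 1, against 6.95% and 7.13%. Without AHR KO FICZ replicate 3, which leaves 1 library in its group, fewer members and fewer of all genes were called. The split was 4 higher and 3 lower with quantile normalization (10.7% and 9.60% of all genes) and 2 and 3 with upper quartile scaling (1398 and 1165 of 12741 genes). The comparisons under DMSO and under FICZ share no library.

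The low value of Rps7 in AHR KO was matched by a high value of a copy. Rps7 lies on chromosome 12 (28630854 to 28635953, minus strand, GRCm38), 6.86 Mb from Ahr on the same chromosome. Gm6472, a pseudogene on chromosome X (152909505 to 152910155, minus strand), differs from it at 3 of 582 coding bases (T26G, G48A and G123T, counted from the first base of the start codon, Rps7 base first). The stretches that hold the 3 differences, from the GENCODE M21 transcripts on GRCm38, are shown with the differing bases in capitals, because reads that miss them fit both genes.
Rps7, coding bases 1 to 60: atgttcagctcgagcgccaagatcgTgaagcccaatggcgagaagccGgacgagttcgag
Gm6472, the same bases: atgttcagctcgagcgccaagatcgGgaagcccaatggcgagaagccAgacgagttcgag
Rps7, coding bases 94 to 153: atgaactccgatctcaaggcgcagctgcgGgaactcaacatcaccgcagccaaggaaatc
Gm6472, the same bases: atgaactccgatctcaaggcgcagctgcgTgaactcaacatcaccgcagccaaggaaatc
The copies of Rps7, almost all Gm6472, held 3248 and 3854 in WT DMSO, 3183, 3093 and 2936 in WT FICZ, 9492 and 9296 in AHR KO DMSO, and 8989 and 8678 in AHR KO FICZ. Gene and copies together held 16080 and 15955, 13935, 15627 and 13961, 15471 and 15134, and 15006 and 14544 in the same order. The summed difference between AHR KO and WT was −0.07 under DMSO (adjusted p = 0.58) and 0.03 under FICZ (adjusted p = 0.78), and neither was called. In the sum the AHR KO libraries lay below the WT libraries under DMSO and among them under FICZ.

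**Figure D5:**
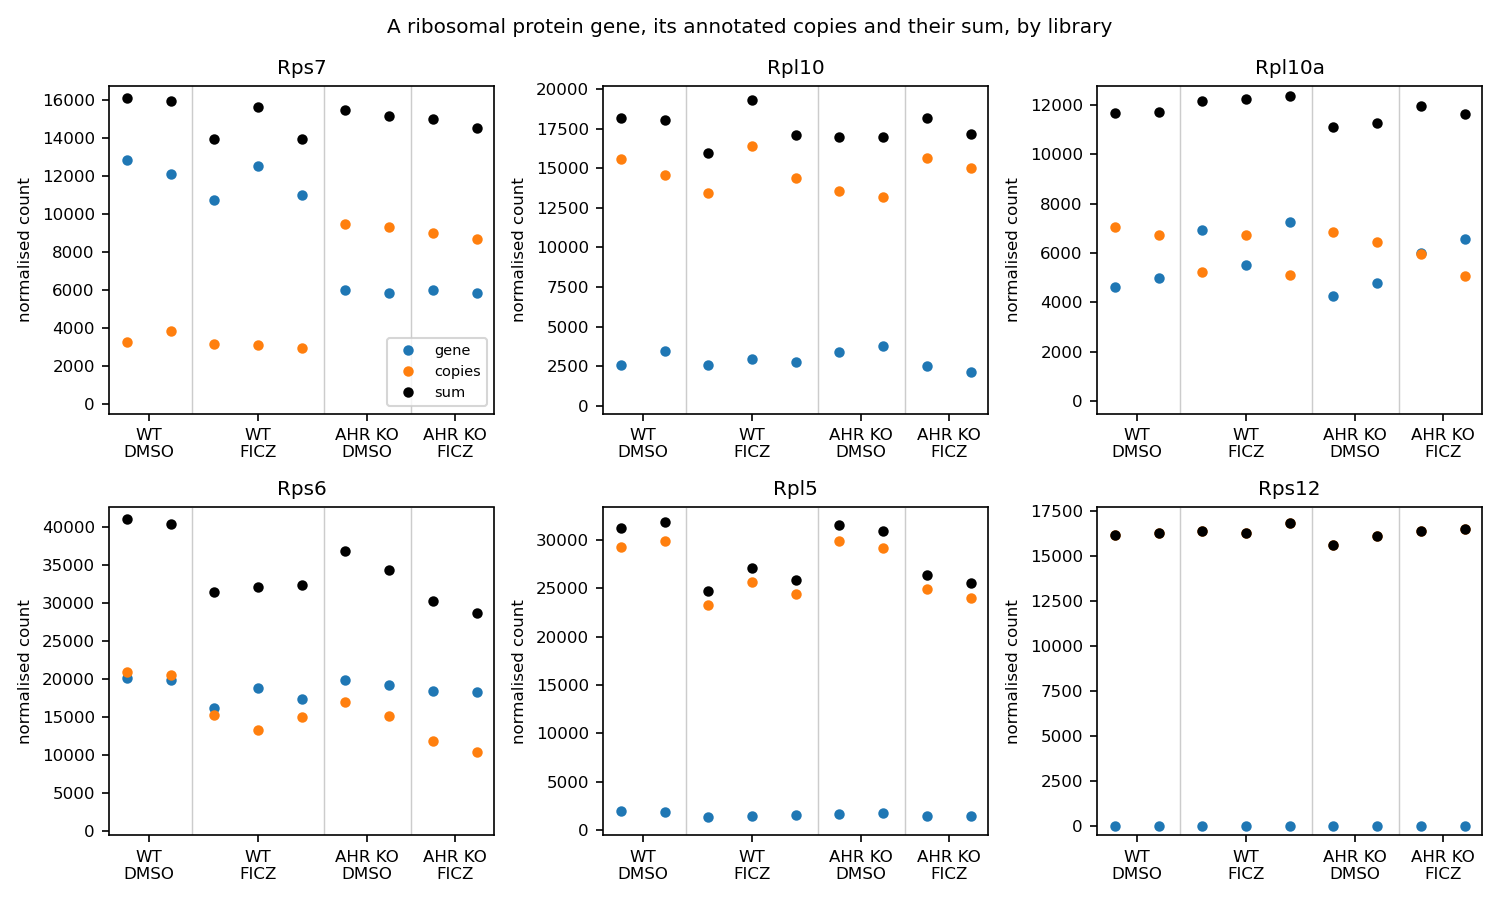
Normalised count in each of the 9 libraries of 6 genes (blue), of their annotated copies (orange) and of the sum (black), with grey lines between the groups. In Rps7 the blue points fall between WT and AHR KO (12832 and 12101 to 5978 and 5839 under DMSO) while the orange points rise and the black points stay between 13935 and 16080; for Rpl10a the black points differ less between the treatments than the blue points, and for Rps12 the gene is at or near 0 and the copies carry the sum.

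Other genes of the ribosome and of its assembly gave values of their own, from lists written with earlier results known. Of 6 ribosomal proteins outside the naming rule, Rack1, a scaffold of the small subunit, was higher in both genotypes (0.44 ± 0.06 in WT, 0.49 ± 0.06 in AHR KO) and Rpl36al lower (−0.17 ± 0.04 and −0.20 ± 0.05). Once the trend was removed Rack1 was called in both, Rpl36al in neither (−0.05 and −0.11), and Fau, not called as deposited, was called lower (−0.50 and −0.54). Of the 6, 1 was called lower in AHR KO than in WT under DMSO and 2 under FICZ, and 0 higher in either. With the GC and length trend removed, 1 was called lower and 1 higher under FICZ. Fau, made as a fusion with a ubiquitin-like protein, was lower in AHR KO than in WT under FICZ (−0.27 ± 0.07, adjusted p = 0.022), and by −0.25 with the trend removed, again called. Of 70 genes of RNA polymerase I and ribosome biogenesis, 45 (64.3%) were called lower and 4 (5.71%) higher with FICZ in WT, with a median of −0.26, and 21 did not pass. In AHR KO 24 (34.3%) were called lower and 4 higher, with a median of −0.13, and 42 did not pass. For these lists the shares of all genes are the 15.1% higher and 15.7% lower in WT and the 10.2% and 9.48% in AHR KO given before. With the GC and length trend removed they are 7.63% and 9.71% in WT and 1.48% and 3.16% in AHR KO. Among them Nop58 and Dkc1, of the small nucleolar ribonucleoproteins, were lower by −0.75 ± 0.06 and −0.75 ± 0.10 in WT, and nucleolin (Ncl) by −0.68 ± 0.06. With the GC and length trend removed 33 of the 70 were called lower in WT and 19 in AHR KO, of which 30 and 14 had been called lower as deposited, and 1 and 0 were called higher. Under FICZ 14 of them were higher in AHR KO than in WT and 0 lower (9.48% and 10.5% of all genes), Gnl3 by 0.41 ± 0.06.

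Of 37 translation initiation factors, 18 (48.6%) were called lower and 4 (10.8%) higher in WT (median −0.16), and 11 (29.7%) lower and 3 (8.11%) higher in AHR KO (median −0.12). With the trend removed these counts were 15 and 3 in WT, and 6 and 1 in AHR KO (median −0.03). Eif3a, the scaffold of the eIF3 complex, was lower by −0.46 ± 0.05 in WT, and Eif6, which keeps the subunits apart, was higher by 0.63 ± 0.09. Of 12 genes listed as elongation factors 1 was called higher (Eef2, 0.23 ± 0.06) and 2 lower in WT. In AHR KO Eef2 alone was called (0.29). The list includes Tpt1 and Eef1e1, which are not elongation factors themselves. With the trend removed none of the 12 was called higher in either genotype, and 2 were called lower in WT (Eef1d and Tpt1), neither of them among the 2 called lower as deposited (Eef1e1 and Eef1b2). Of 14 chaperones of ribosomal proteins 8 (57.1%) were called lower and 1 higher in WT, and 4 (28.6%) lower in AHR KO. With the trend removed 4 were called lower in WT and 1 in AHR KO, and none higher. Mitochondrial ribosomal proteins, 78 genes, were called higher in 11 (14.1%) and lower in 13 (16.7%) in WT (median −0.03), close to the shares of all genes, and in 7 and 7 (8.97% each) in AHR KO. With the trend removed 4 and 3 were called in WT and 2 and 1 in AHR KO. Small nucleolar RNA host genes gave 1 lower call of 11 in each genotype and none with the trend removed. Of 14 regulators, 4 were called higher and 3 lower in WT, and 4 and 2 in AHR KO, and with the trend removed 2 and 3, and 1 and 1. The higher calls with the trend removed were among those as deposited, but only 2 of the 3 lower calls in WT and 0 of 1 in AHR KO were. Among them Myc was lower in WT (−0.31 ± 0.06, adjusted p = 0.005) and was not called in AHR KO (−0.07). Maf1, a repressor of RNA polymerase III, was higher in WT (0.76 ± 0.11) and AHR KO (0.69). No gene of these lists was called for a difference between the genotypes in the FICZ change, against 0.377% of all genes higher and 0.0706% lower.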

How the data were processed

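The authors deposited 1 table of normalised read counts, a signal on a linear scale with decimals, for 9 libraries. The submitters' processing notes name RSEM 1.2.31, STAR 2.5.2a, DESeq2 1.16.1 and GRCm38. The methods of the study describe stranded libraries depleted of ribosomal RNA and another counting program (summarizeOverlaps). The deposited table is named for RSEM, and how it was scaled is not given in the sources used here. The deposited values are normalised and not whole numbers, so no count model was used.

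Symbols came from GENCODE M21 (48435 identifiers, 99.3%). The 4 groups were fitted together to log2(value + 1) of genes with a mean of 10 or more with limma 3.58.1 (R 4.3.3, eBayes with trend, two-sided), and genes with a Benjamini-Hochberg adjusted p under 0.05 over all genes were called. Fold changes on this scale are understated for low genes. Copies were found with BLAST 2.17.0. The script was tested on simulated data. Alternatives were other pseudocounts, filters and scalings, a GC and length spline taken out of each library, a replicate block, the line as a random effect, copies added, and leaving out each library.

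Genes named were a fixed list plus, in each comparison, up to 5 called members on either side with a mean of 50 or more and no overlap of the groups. The members and lists were chosen with earlier results of these data known. Of the genes this rule and the lists name, 2 are not reported here by name.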

Additional observations from a re-analysis of the deposited data

How the results depend on the processing

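With the GC and length trend removed, 21 members were called for FICZ in WT (35 as deposited) and 16 in AHR KO (30 as deposited). When copies were also added, 12 were called in AHR KO, against 1.39% of all genes higher and 3.13% lower. For AHR KO against WT under DMSO, 5 members were called as deposited, against 4.21% of all genes higher and 4.83% lower. Without the filter on low values 2 were called (1.74% and 1.87% of all genes). There were 3 with upper quartile scaling (5.01% and 4.03%) and 1 with quantile normalization (4.37% and 3.98%). Leaving out 1 library at a time gave 18 to 47 called members for FICZ in WT, 6 to 36 for FICZ in AHR KO, 0 to 1 for the difference between genotypes, 1 to 13 for AHR KO against WT under DMSO and 1 to 28 under FICZ. Only WT FICZ replicate 2 raised counts above those of all libraries when left out. At these upper ends 15.6% of all genes were called higher and 16.8% lower for FICZ in WT (15.1% and 15.7% with all libraries). For FICZ in AHR KO the shares were 11.7% and 11.5% (10.2% and 9.48%). For AHR KO against WT they were 5.06% and 6.51% under DMSO and 11.2% and 13.0% under FICZ. Apart from the difference between genotypes, fewer of all genes were called at the low end of each range than with all libraries. Where a left-out library leaves 1 in a group, that one is assumed to vary like the others.

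Some called differences changed sign. With copies added, Rpl10 in AHR KO was 0.058 and, with the GC and length trend also removed, 0.091. With both, Rpl10a was −0.045 in WT and −0.062 in AHR KO, and Rpl11 in AHR KO −0.020. Rps7 in AHR KO against WT under FICZ was 0.028 with pseudogenes added, 0.028 with all copies added and 0.047 with the trend removed as well. In each of these the gene and its copies differed in opposite directions. Of 44 called differences of named members, 15 kept direction and call in every alternative.

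Whether same-numbered libraries came from 1 line was not settled. Their deviations from the group mean correlated at 0.04 and 0.05 in WT and 0.04 in AHR KO. Differently numbered libraries gave −0.05 to 0.001 in WT and −0.035 in AHR KO. In a group of 2 libraries the deviations mirror each other, so these values cannot show whether the libraries were paired. With the replicate number as a block, 13 members (17.1%) were called higher and 18 (23.7%) lower for FICZ in WT, against 13.1% and 13.7% of all genes. In AHR KO 16 (21.1%) were higher and 12 (15.8%) lower, against 9.22% and 8.34%. For the difference between genotypes 0 were called (0.259% and 0.0471% of all genes). For AHR KO against WT, 4 were called under DMSO (3.64% and 4.62% of all genes) and 7 under FICZ (8.99% and 10.3%). At 21.5 to 30.1 M reads a library, Rpl10l, Rpl39l and Rpl3l were at or near 0, and whether more reads would show them was not tested. For members with identical copies the sharing of reads is the limit.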
